A study of Mus musculus with 44 samples.

Results

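The genes described here are the integrin, cadherin and claudin genes of mouse granulosa cells, the somatic cells that surround the oocyte in the ovarian follicle. They were chosen by name, as symbols that begin with Itga, Itgb, Cdh or Cldn followed by a digit, and by a mean of at least 10 normalized counts over the RNA-seq libraries. Of 25865 genes with values in every library, 81 had such a name, 30 of these reached the mean of 10, and 51 did not. The 30 genes comprised 11 of 12 Itga genes, 7 of 12 Itgb genes, 8 of 23 Cdh genes and 4 of 34 Cldn genes. Itgb1bp1, whose product binds the tail of the beta 1 integrin, and Itgb3bp, which encodes a centromere protein, carry an integrin-like name and encode no integrin. The name pattern leaves out integrin alpha genes named with a letter, such as Itgav.

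Integrins are receptors made of 1 alpha and 1 beta subunit that bind extracellular matrix and link it to the actin cytoskeleton through adaptors such as talin. Cadherins hold neighboring cells together at adherens junctions by binding the same kind of cadherin on the next cell, and bind catenins inside the cell. Claudins form the strands of tight junctions. In the follicle, granulosa cells rest on a basal lamina rich in laminin and type IV collagen, contact each other and the oocyte through cadherins, and change their contacts with the matrix when the cumulus expands.

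The samples were primary granulosa cells from immature female mice primed with PMSG, on a mixed genetic background. GDF9 is an oocyte-secreted factor that signals through SMAD2 and SMAD3. RNA was sequenced in 4 libraries, 2 of cells treated with recombinant mouse GDF9 for 4 h and 2 of cells treated with vehicle. The study's text gives these cells as Smad3PA/PA, with a PA tag on both Smad3 alleles, whereas the labels of the RNA samples give no genotype. CUT&RUN, which maps where an antibody finds its target on DNA, was done in Smad3PA/PA cells (H3K27ac, SMAD2, PA and SMAD4) and in Smad2HA/+ cells, with an HA tag on 1 Smad2 allele (H3K27ac, SMAD2, HA and SMAD3), each after GDF9 or vehicle, in 2 replicates. The cells of the CUT&RUN cultures were pooled from several mice, and no wild-type cells were among the samples. Nothing in the sources used here says whether replicates came from separate animals or separate cultures. The p-values therefore measure only the spread between these samples.

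The 4 RNA-seq libraries held 8827825 to 11416005 reads in genes. The RNA-seq values are the authors' normalized counts, reads divided by a size factor per library. The 15 granulosa cell markers summed to 43975 and 44257 normalized counts with GDF9 and 43009 and 43924 with vehicle. Among them Foxl2, Amhr2 and Inhba averaged 801, 537 and 11451 normalized counts, whereas Amh averaged 1.49. Of the 13 markers tested, 3 were called higher with GDF9 (Hsd17b1, Fst and Esr2) and 2 lower (Kitl and Nr5a2). Over all tested genes 2.44% were called higher and 0.707% lower. The part of these marker changes in the results below was not tested. The share of reads from mitochondrially encoded genes was 3.38% and 3.07% with GDF9 and 2.37% and 2.35% with vehicle, and Malat1 took 0.282% and 0.264% with GDF9 and 0.108% and 0.11% with vehicle. The part of these differences was likewise not tested. The 11 leukocyte markers, of which Itgb2, Itgam and Itgax are themselves integrin genes, summed to 165 and 170 normalized counts with GDF9 and 126 and 132 with vehicle, with 4 tested and none called. The 9 endothelial markers, among them Cdh5 and Cldn5, summed to 23.2 and 39.7 with GDF9 and 40.2 and 42.5 with vehicle. Stroma markers summed to 22284 and 22778 with GDF9 and 21776 and 22319 with vehicle. The 7 theca markers, Star and Cyp11a1 among them, summed to 53743 and 54292 with GDF9 and 52106 and 52837 with vehicle. These theca sums were above those of the granulosa markers, and came mostly from Cyp11a1 and Star, which averaged 45256 and 7785 normalized counts. Only 3 of the 7 theca markers had enough reads to be tested, and Insl3 had no read in any library. Whether the reads of Cyp11a1 and Star came from theca or granulosa cells was not tested. Surface epithelium markers summed to 6438 and 6607.4 with GDF9 and 6393.5 and 6499.1 with vehicle. None of the 9 tested stroma, 7 surface epithelium, 3 theca or 2 oocyte markers was called. In these bulk samples, fewer cells of a type and less RNA per cell cannot be told apart.

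Itga2 and Itga10, which encode alpha subunits of collagen-binding integrins, were the 2 genes called different between treatments, and the sequences around their starts are shown first. Coordinates and sequences are those of mm10 (GRCm38), and the upstream sequences are from RefSeq (build GRCm38.p6). Itga2 spans chr13:114833081-114932100 on the minus strand and Itga10 spans chr3:96645584-96664519 on the plus strand. The first pair of sequences is the 250 bases upstream of each start site, chr13:114932101-114932350 for Itga2 and chr3:96645334-96645583 for Itga10. The third is the middle 300 bases of a place in the first intron of Itga2, chr13:114916152-114916451, where CUT&RUN regions of several antibodies coincided. All are given 5′ to 3′ on the strand of the gene, and capitals mark CAGAC or its complement GTCTG, the short element that SMAD3 and SMAD4 contact.
Itga2 upstream: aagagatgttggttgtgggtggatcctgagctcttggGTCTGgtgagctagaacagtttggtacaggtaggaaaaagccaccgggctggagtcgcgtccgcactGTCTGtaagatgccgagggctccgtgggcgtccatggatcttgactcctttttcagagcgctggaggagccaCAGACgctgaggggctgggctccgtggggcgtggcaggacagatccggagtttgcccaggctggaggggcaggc
Itga10 upstream: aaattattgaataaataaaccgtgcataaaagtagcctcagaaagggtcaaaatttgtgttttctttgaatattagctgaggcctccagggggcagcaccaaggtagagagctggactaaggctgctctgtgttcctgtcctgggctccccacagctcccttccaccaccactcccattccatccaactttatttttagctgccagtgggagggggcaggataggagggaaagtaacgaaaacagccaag
Itga2 intron 1: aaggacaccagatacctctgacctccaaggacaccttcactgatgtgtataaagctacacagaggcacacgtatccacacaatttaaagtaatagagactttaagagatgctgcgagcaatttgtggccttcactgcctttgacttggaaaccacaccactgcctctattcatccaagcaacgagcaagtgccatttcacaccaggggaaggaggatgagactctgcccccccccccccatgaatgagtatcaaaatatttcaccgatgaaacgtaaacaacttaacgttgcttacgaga
Both strands were searched for CAGAC and for TGANTCA, the core that AP-1 factors bind. The upstream sequence of Itga2 held CAGAC 3 times, that of Itga10 held none, and the intron 1 sequence held none. Among 32851 RefSeq upstream windows of the same length, 42.2% held CAGAC at least once and 2.32% at least 3 times. Among 18471 windows of 300 bases at the middle of SMAD2 regions of GDF9-treated Smad2HA/+ cells, 47.4% held it. None of the 3 sequences held TGANTCA, which was in 6.75% of the upstream windows and 12.2% of the SMAD2 windows. A match is a description of the letters and not a binding site.

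Both called genes, Itga2 and Itga10, encode collagen-binding alpha subunits, whereas Itga1 and Itga11, of the same kind, were not called. Differential expression was tested with limma-trend on log2(value + 1), fitted over the 12597 genes that averaged 10 or more, and genes were called by the limits of the study, a log2 fold change of more than 0.18 in size with an adjusted p below 0.05. Of the 30 genes 2 were called higher with GDF9, against 2.44% of all tested genes, and 0 lower, against 0.707% of all tested genes. In either direction 3.14% of all tested genes were called, so the count among the 30 genes is close to that of genes at large. At an unadjusted p under 0.05, 8 of the 30 genes passed, against 15.6% of all tested genes. By edgeR the 30 genes likewise gave 2 higher and 0 lower, and by DESeq2 on the same reads 0 and 0.

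Itga10 had 68.5 and 35.8 normalized counts with GDF9, against 18.4 and 21.3 with vehicle. Both GDF9 libraries lay above both vehicle libraries, and the GDF9 libraries differed from each other more than the vehicle libraries did. Its mean was 52.1 ± 23.1 with GDF9 and 19.8 ± 2.0 with vehicle (SD, n = 2 each), a log2 fold change of 1.28 with a standard error of 0.28 (limma, adjusted p = 0.0055). The call rested on GDF9 replicate 1: without it the log2 fold change was 0.83 with an adjusted p of 0.282. The exons of Itga10 share 34.5% of their length with Gm42957, a gene model on the same strand whose symbol is not in the table used here. Reads in the shared part cannot be assigned to one of the pair.

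Itga2 had 233 and 232 normalized counts with GDF9, against 164 and 183 with vehicle. The groups did not overlap, and the GDF9 libraries were nearly equal. The mean was 232.4 ± 0.29 with GDF9 and 173.4 ± 12.9 with vehicle (SD, n = 2 each), a log2 fold change of 0.42 with a standard error of 0.11 (limma, adjusted p = 0.0202). Without GDF9 replicate 1 the adjusted p was 0.0654, and without vehicle replicate 1 it was 0.246.

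The other collagen-binding alpha genes did not pass the test. Itga1, the neighbor of Itga2 on the same strand (chr13:114953096-115101964), had 186 and 191 normalized counts with GDF9, against 224 and 174 with vehicle. The vehicle libraries lay on both sides of the GDF9 libraries, and the 95% interval of its log2 fold change was -0.31 to 0.18. Itga11 had 91.6 and 88.0 normalized counts with GDF9, against 102.2 and 102.8 with vehicle, lower in both GDF9 libraries, with a log2 fold change of -0.19 and an adjusted p of 0.603.

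**Figure D1:**
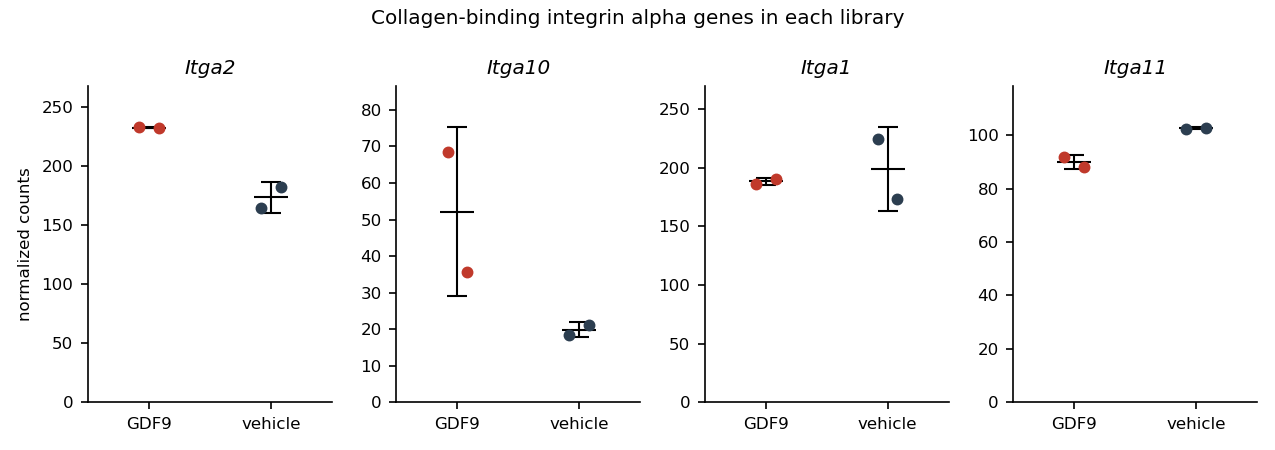
Normalized counts of the 4 collagen-binding integrin alpha genes in each RNA-seq library. Points are libraries, and the bar and whiskers give the mean and the SD of 2 libraries for GDF9 and for vehicle. Both GDF9 points lie above both vehicle points for Itga2 and Itga10, overlap the vehicle points for Itga1 and lie below them for Itga11.

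The beta subunit genes Itgb5 and Itgb1 had the highest levels per length of the 30 genes, and their levels with GDF9 and vehicle were close. Itgb5, a partner of the alpha v subunit that binds vitronectin, had 14530 and 14756 normalized counts with GDF9, against 13840 and 14240 with vehicle. Both GDF9 libraries were the higher ones, by a log2 fold change of 0.06 (limma, adjusted p = 0.365), which did not pass. Itgb1, the partner of most matrix-binding alpha subunits, had 11649 and 12056 normalized counts with GDF9, against 12419 and 12205 with vehicle. Here both GDF9 libraries were the lower ones, by a log2 fold change of -0.06 (limma, adjusted p = 0.44). Per kb of exon, Itgb5 averaged 4229 and Itgb1 3167 normalized counts, at percentiles 99.4 and 99.1 of the tested genes.

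Itgb3, the partner of alpha v and of the platelet alpha IIb subunit, had 1101 and 1101 normalized counts with GDF9, against 1128 and 1081 with vehicle, so that the vehicle libraries enclosed the GDF9 libraries. Itgb4, which pairs with alpha 6 in hemidesmosomes, averaged 59.0 ± 20.5 with GDF9 and 58.1 ± 4.25 with vehicle, and Itgb8, another partner of alpha v, averaged 20.7 ± 2.21 with GDF9 and 20.8 ± 1.86 with vehicle (SD, n = 2 each). Outside the name pattern, Itgav itself had 3695 and 3370 normalized counts with GDF9, against 3484 and 3486 with vehicle, and was not called.

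Itga5, Itga3 and Itga6 had the highest levels per kb of exon among the alpha genes. Itga5, the alpha subunit of the fibronectin receptor, was first at 452 normalized counts per kb. It had 2050 and 1996 normalized counts with GDF9, against 1879 and 2000 with vehicle, and the groups overlapped. Itga3 averaged 343 normalized counts per kb and Itga6 averaged 195, and both encode laminin receptors. Itga3 had 1852 and 1759 normalized counts with GDF9, against 1820 and 1772 with vehicle, a log2 fold change of 0.01 with a 95% interval of -0.09 to 0.10. Itga6 had 853 and 790 normalized counts with GDF9, against 897 and 857 with vehicle, lower in both GDF9 libraries with a log2 fold change of -0.10 that did not pass (limma, adjusted p = 0.47).

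The remaining alpha genes did not pass either. Itga9 had 707 and 721 normalized counts with GDF9, against 640 and 686 with vehicle, with a log2 fold change of 0.11 (limma, adjusted p = 0.433). Itga7, the laminin receptor known from muscle, averaged 173 ± 20.9 with GDF9 and 164 ± 0.85 with vehicle (SD, n = 2 each). Itga8 had 13.1 and 21.3 normalized counts with GDF9, against 20.7 and 38.1 with vehicle, so its groups overlapped and its log2 fold change of -0.72 had a 95% interval of -1.40 to -0.04. Itga2b, the alpha IIb subunit known from platelets, averaged 13.8 ± 0.39 with GDF9 and 13.5 ± 6.03 with vehicle (SD, n = 2 each). Of the name-alike genes, Itgb1bp1 averaged 364 ± 48.3 with GDF9 and 361 ± 24.1 with vehicle, and Itgb3bp averaged 69.9 ± 12.0 with GDF9 and 71.8 ± 2.46 with vehicle (SD, n = 2 each).

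**Figure D2:**
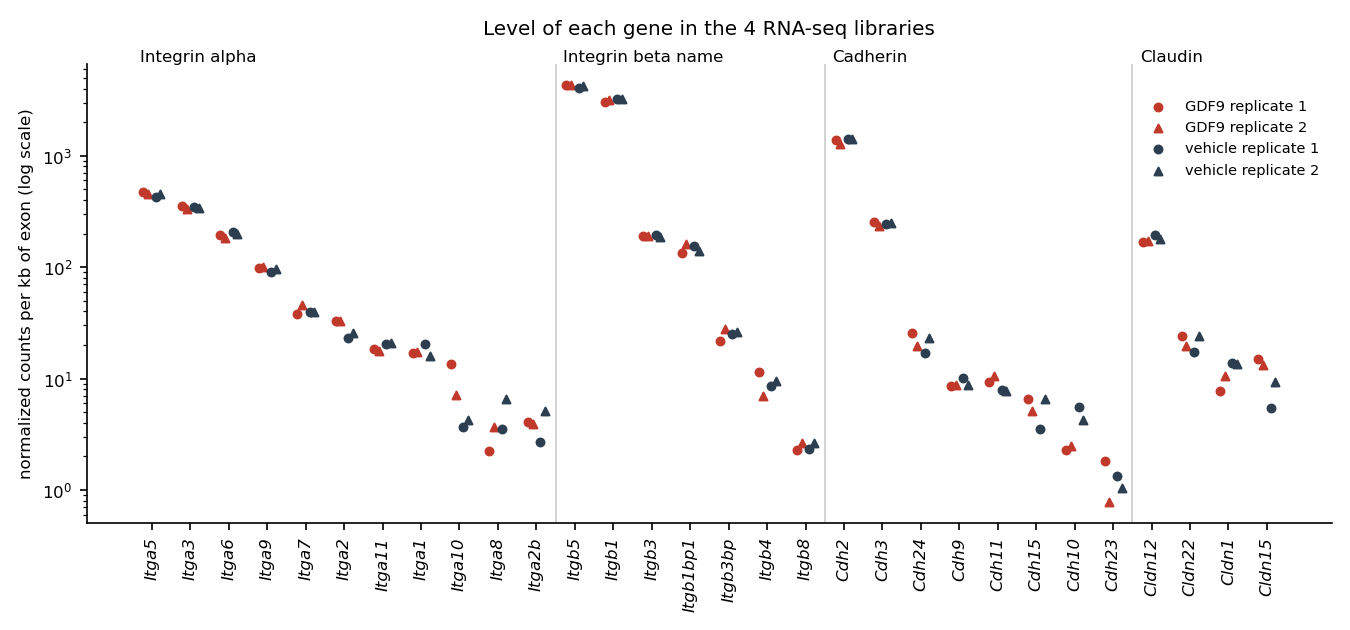
Normalized counts per kb of merged exons, on a log axis, for the 30 genes in each RNA-seq library, ordered by level within the Itga, Itgb, Cdh and Cldn names. Red marks are GDF9 libraries and dark marks vehicle libraries. Itgb5, Itgb1 and Cdh2 are the highest, at 4229, 3167 and 1364 normalized counts per kb on average over all 4 libraries, and the marks of most genes lie on top of each other.

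Cadherin expression was dominated by Cdh2, which encodes N-cadherin, the cadherin known from contacts between granulosa cells and between granulosa cells and the oocyte. Cdh2 averaged 1364 normalized counts per kb, at percentile 97.0 of the tested genes. It had 6783 and 6367 normalized counts with GDF9, against 6964 and 6926 with vehicle. Both GDF9 libraries were lower, by a log2 fold change of -0.08 with a 95% interval of -0.15 to -0.0046, which did not pass after adjustment over all genes (limma, adjusted p = 0.281). Cdh3, P-cadherin, came next at 245 normalized counts per kb and had 1111 and 1026 normalized counts with GDF9, against 1075 and 1085 with vehicle. Cdh24 followed at 21.3 normalized counts per kb and had 89.6 and 68.7 normalized counts with GDF9, against 58.6 and 80.6 with vehicle. The groups of Cdh3 and of Cdh24 overlapped.

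Cdh1, which encodes E-cadherin of epithelia, averaged 4.34 normalized counts and lay below the limit. Cdh5, the endothelial VE-cadherin, averaged 2.68. Among the low cadherins that reached the mean of 10, Cdh10 had 8.06 and 8.71 normalized counts with GDF9, against 19.5 and 15.1 with vehicle. Both GDF9 libraries were lower, with a log2 fold change of -0.95 that did not pass (limma, adjusted p = 0.22). Cdh11, a cadherin of mesenchymal cells, had 52.4 and 59.0 normalized counts with GDF9, against 44.8 and 43.4 with vehicle, higher in both GDF9 libraries with an adjusted p of 0.47. Cdh9, Cdh15 and Cdh23 averaged 31.9, 17.6 and 13.8 normalized counts over the 4 libraries, and none was called.

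Claudin expression was low apart from Cldn12. Cldn12, a claudin that lacks the binding motif for ZO proteins of other claudins, averaged 178 normalized counts per kb. It had 668 and 671 normalized counts with GDF9, against 763 and 706 with vehicle. The groups did not overlap, and the log2 fold change of -0.13 did not pass (limma, adjusted p = 0.302). Cldn22, whose exon lies on the strand opposite to exons of Wwc2, had 24.2 and 19.4 normalized counts with GDF9, against 17.2 and 23.9 with vehicle.

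Cldn1, a sealing claudin of epithelia, had 25.2 and 33.9 normalized counts with GDF9, against 44.8 and 43.4 with vehicle. The GDF9 libraries were lower, and the log2 fold change of -0.58 did not pass (limma, adjusted p = 0.23). Cldn15, a channel-forming claudin of the intestine, had 28.2 and 25.2 normalized counts with GDF9, against 10.3 and 17.7 with vehicle. Its log2 fold change of 0.92 was the second highest among the 30 genes and did not pass (limma, adjusted p = 0.141). Cldn11, the claudin of Sertoli cells in the testis, averaged 1.21 normalized counts, and Cldn5, the endothelial claudin, had no read in any library.

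Of the 51 genes below the limit, 24 had no read in any library, which allows up to 3 reads per library at this depth. Just below the limit were Itgb6 at 9.37 and Cldn3 at 8.71 normalized counts, and just above it were Cdh10 at 12.8 and Itga2b at 13.6. Itgb6, the epithelial partner of alpha v, had 7.05 and 11.6 normalized counts with GDF9, against 12.6 and 6.20 with vehicle. Cldn3 had 16.1 and 6.77 normalized counts with GDF9, against 5.74 and 6.20 with vehicle. The leukocyte subunit Itgb2 averaged 3.26 and the lymphocyte subunit Itga4 averaged 5.11 normalized counts.

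The 30 genes as a whole moved about as far as other genes. Their median log2 fold change was 0.0014, against -0.0064 over all tested genes, and the median of its absolute value was 0.091, against 0.088 over all tested genes. The log2 fold change was above 0 in 15 of the 30 genes. The GDF9 and vehicle libraries did not overlap in 14 of the 30 genes, 6 with GDF9 above and 8 below, against 45.2% of all tested genes. In the 10 genes that averaged 500 or more, the log2 fold changes lay between -0.13 and 0.11, and the widest bounds of their 95% intervals were -0.26 and 0.24. Together the 30 genes took 0.419% and 0.421% of all normalized counts with GDF9 and 0.423% and 0.426% with vehicle.

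**Figure D3:**
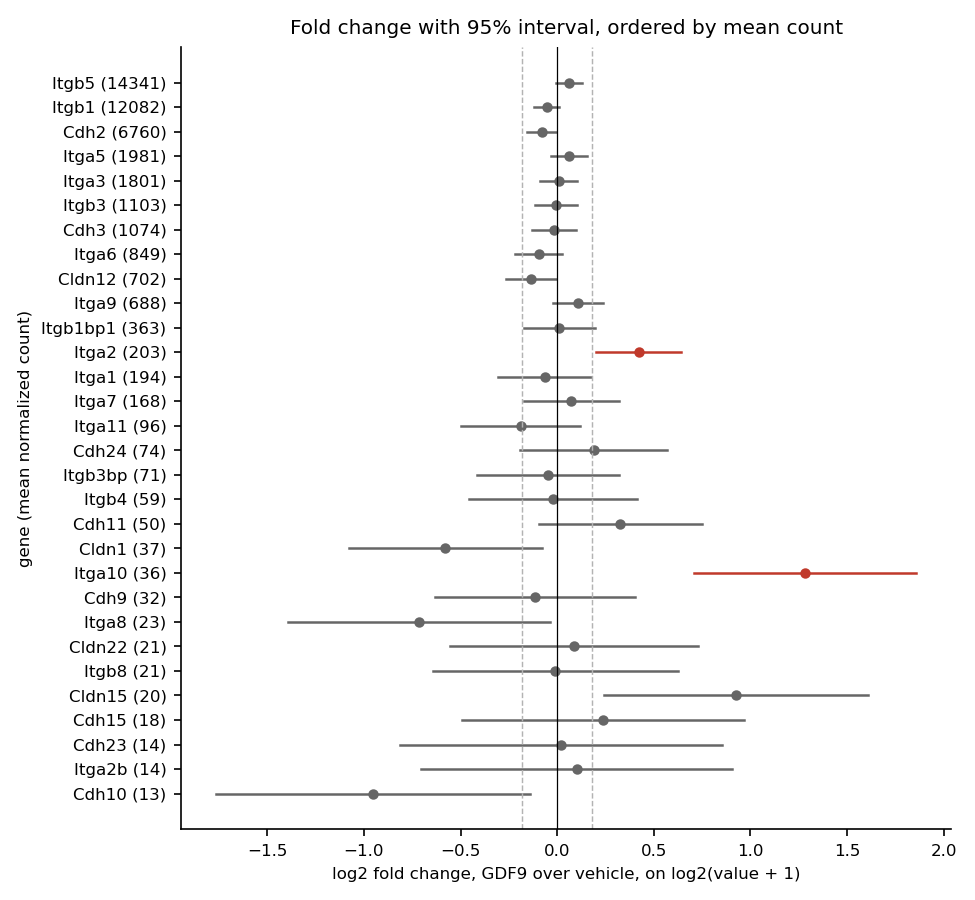
Log2 fold change of the 30 genes, GDF9 over vehicle, with its 95% interval from limma, ordered by mean normalized count (in parentheses). Dashed lines mark log2 fold changes of -0.18 and 0.18, and red marks the called genes Itga2 and Itga10. The intervals widen toward low counts, and those of the 10 genes that averaged 500 or more stay between -0.26 and 0.24.

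Partners of these receptors were described from lists chosen by function, whose counts stand beside the 2.44% of all tested genes called higher and the 0.707% called lower. Among 31 integrin adaptors and focal adhesion genes 29 were tested, and 2 were called higher and 0 lower. Nedd9, a docking protein of focal adhesions, had 4129 and 4112 normalized counts with GDF9, against 3274 and 3270 with vehicle, a log2 fold change of 0.33 (limma, adjusted p = 6.2e-07). Tns1, tensin 1, which ties integrin tails to actin, had 11612 and 10866 normalized counts with GDF9, against 9728 and 9707 with vehicle, a log2 fold change of 0.21 (limma, adjusted p = 0.00019). Both genes were higher in both GDF9 libraries.

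Among 26 integrin ligands 24 were tested, and 1 was called higher and 0 lower. It was Lama1, the laminin alpha 1 chain of basal laminae, a ligand of integrins such as those that contain the products of Itga6 and Itga7. Lama1 had 13370 and 13123 normalized counts with GDF9, against 9968 and 9840 with vehicle (log2 fold change 0.42, limma, adjusted p = 1.2e-10). None of the 15 tested catenins and adherens junction partners (of 19) and none of the 12 tested cadherin superfamily genes outside the name pattern (of 21) was called. Among 23 tight junction partners 20 were tested, and Cxadr, an adhesion molecule of tight junctions, was called lower, with 1306 and 1170 normalized counts with GDF9, against 1510 and 1388 with vehicle (log2 fold change -0.23, limma, adjusted p = 0.0151). The median log2 fold changes were -0.04 for adaptors, -0.02 for ligands, -0.07 for catenins, -0.02 for other cadherins and -0.07 for tight junction partners.

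CUT&RUN regions at the 30 genes were next compared with those at all tested genes. A region is a place where the peaks of both replicates overlapped, the promoter is 3 kb to either side of a start site, and 12268 tested genes with a GENCODE vM21 gene model, all 30 among them, were counted. Peak heights within a library were whole multiples of 1 step, the scaled worth of 1 fragment. In the Smad3PA/PA libraries the smallest peaks were 1 to 4 steps high, so single peaks there rest on few fragments. In vehicle-treated Smad3PA/PA cells the list of SMAD2 replicate 2 stood apart, with 23082 peaks against 78766 in replicate 1.

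H3K27ac, a mark of active promoters and enhancers, was found at the promoter of fewer of these genes than of tested genes in general. In Smad3PA/PA cells 12 of 30 had a promoter region with GDF9 (69.7% of all tested genes) and 10 with vehicle (69.7%). In Smad2HA/+ cells it was 17 with GDF9 (80.9%) and 18 with vehicle (78.9%), where peaks were often wide (43793 bp at Itga2 in GDF9 replicate 1). Of the 10 genes that averaged 500 or more, 6 had a promoter region in Smad3PA/PA cells under either treatment, against 90.5% of tested genes at that level with GDF9 and 90.6% with vehicle. The others were Itga6, Itga9, Itgb3 and Cdh3. In Smad2HA/+ cells it was 8 of the 10 with GDF9, against 97.4% of tested genes at that level, and 9 with vehicle, against 96.3%, Itgb3 and Cdh3 among them. Itga6 had no H3K27ac region at its promoter, exons or first intron in either line. These shares are counts and were not tested.

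With the SMAD and tag antibodies few genes had a region in Smad3PA/PA cells. For SMAD2, a region in the promoter, an exon or the first intron was found at 2 of 30 genes with GDF9, Cdh2 and Itgb8 (13.6% of all tested genes), and at 0 with vehicle (1.34%). Both lay in the first intron and were 3 to 7 steps high in each replicate. With 1 replicate at a time, 15 and 11 of the 30 genes had a SMAD2 peak with GDF9 (44.7% and 45.8% of all tested genes), and 12 and 9 with vehicle (41.5% and 15.2%). For PA, that is tagged SMAD3, there were 0 with GDF9 (2.52%) and 0 with vehicle (1.65%). For SMAD4, the shared partner of SMAD2 and SMAD3, there were 7 with GDF9 (22.4%), namely Cdh10, Cdh2, Itga1, Itga2b, Itga5, Itgb1bp1 and Itgb8, and 4 with vehicle (20.4%), namely Cdh2, Itga2, Itgb1 and Itgb3bp. These genes are long, and the searched stretch had a median of 19230.5 bp in the 30 genes and 11795.5 bp in all tested genes.

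In Smad2HA/+ cells regions were common, and fewer of the 30 genes than of tested genes in general had one, a count that was not tested. For the SMAD and tag antibodies of either line, the tested genes were not matched to the 30 genes by expression level. Promoter regions of SMAD2 were found at 11 genes with GDF9 (58.6%) and 13 with vehicle (70.1%), those of HA at 11 with GDF9 (71.3%) and 14 with vehicle (79.2%), and those of SMAD3 at 10 with GDF9 (75.2%) and 15 with vehicle (82.8%). A promoter region in each of the 8 lists of this line was found at 7 genes, Itga2, Itga2b, Itgb1, Itgb1bp1, Itgb5, Cdh2 and Cldn12, against 45.5% of all tested genes. No region in any of the 16 lists of both lines was found at 5 genes, Itga8, Cdh9, Cdh11, Cdh15 and Cldn1, against 3.08% of all tested genes.

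**Figure D4:**
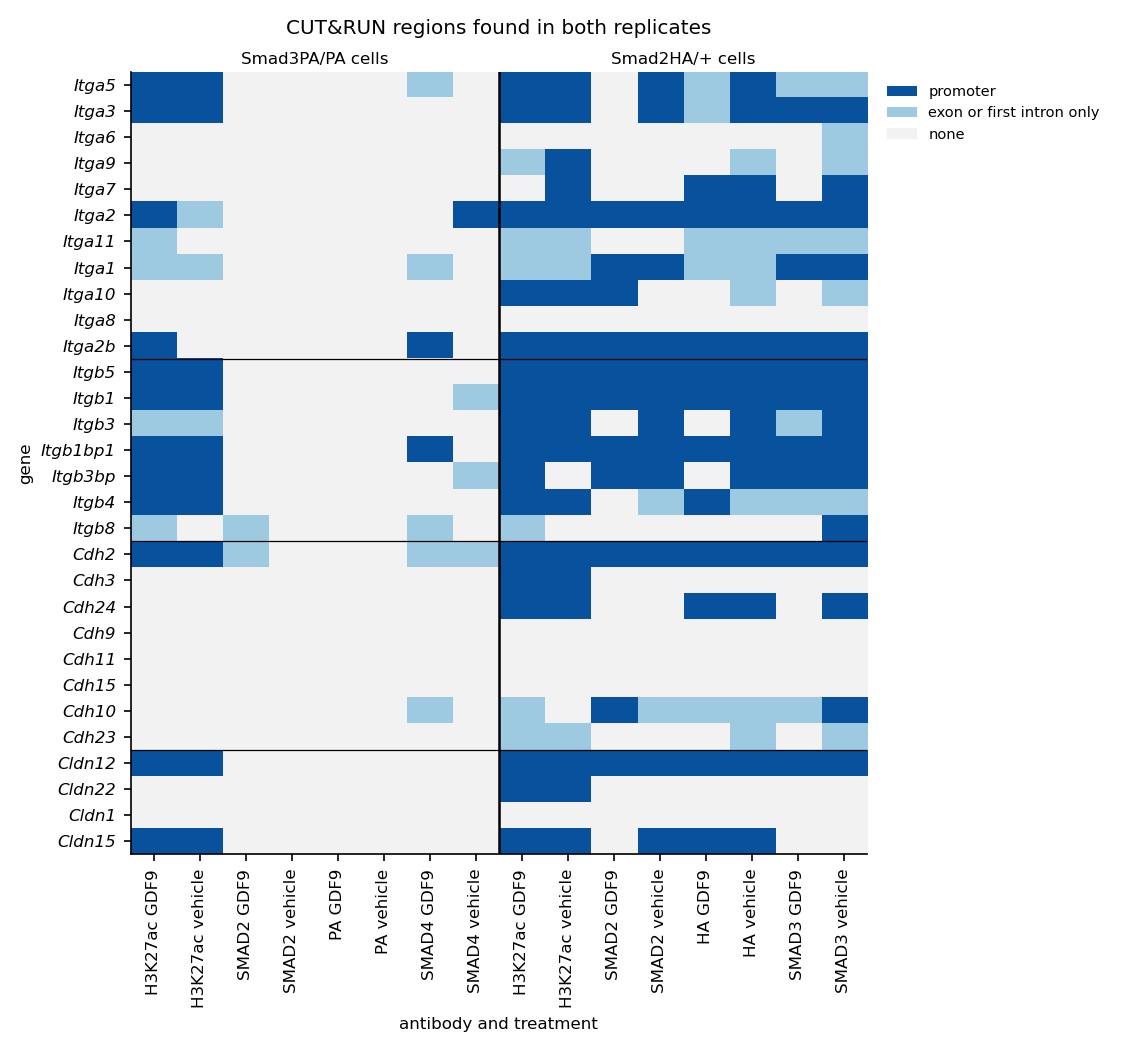
CUT&RUN regions found in both replicates at each of the 30 genes (rows) by antibody and treatment (columns), for Smad3PA/PA cells on the left and Smad2HA/+ cells on the right. Dark blue is a promoter region, light blue a region in an exon or the first intron, and gray none. The SMAD2 and PA columns of Smad3PA/PA cells are nearly empty, and 7 genes are dark blue across all 8 columns of Smad2HA/+ cells.

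At Itga2, the 3 SMAD-type antibodies of Smad2HA/+ cells marked the same 2 places under both treatments. The first lay at the promoter. With GDF9 the SMAD2 region there (chr13:114932882-114934454) and the SMAD3 region (chr13:114932815-114934678) lay upstream of the 250 bases shown above. The HA region with GDF9 (chr13:114931005-114935114) contained those 250 bases, as did the vehicle regions of SMAD2, HA and SMAD3. The highest signal of the HA peaks there was 1.07 and 2.61 with GDF9, against 1.44 and 1.54 with vehicle, and that of the SMAD2 peaks was 0.629 and 0.851 with GDF9, against 0.786 and 0.151 with vehicle, in units scaled to E. coli spike-in. In both antibodies the treatments overlapped. SMAD3 peaks reached 1.219 and 1.478 with GDF9, against 1.333 and 1.456 with vehicle.

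The second place lay in the first intron of Itga2, where the SMAD2, HA and SMAD3 regions with GDF9 shared chr13:114915525-114917077, centered 15799 bp downstream of the start site. The third sequence above is its middle. In 3 of 4 H3K27ac libraries of Smad2HA/+ cells the highest point of the promoter-overlapping peak lay there, 15912 and 16172 bp downstream with GDF9 and 15961 bp downstream in vehicle replicate 1, with heights of 31.3 and 31.6 with GDF9 and 25.2 with vehicle. In vehicle replicate 2 the promoter lay in a separate peak with a height of 16.9. The highest peak of that replicate within the whole vehicle region, chr13:114889324-114937284, reached 22.4, and its highest point was not located. Smad3PA/PA cells had an H3K27ac region at the same intronic place with both treatments, with heights of 15.8 and 25.1 with GDF9, against 14.5 and 24.6 with vehicle. At the promoter of Itga2 the H3K27ac peaks of Smad3PA/PA cells reached 12.4 and 23.3 with GDF9, against 14.5 and no peak with vehicle. No SMAD2 or PA region was found at Itga2 in these cells, and its 3 SMAD4 regions were found with vehicle.

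**Figure D5:**
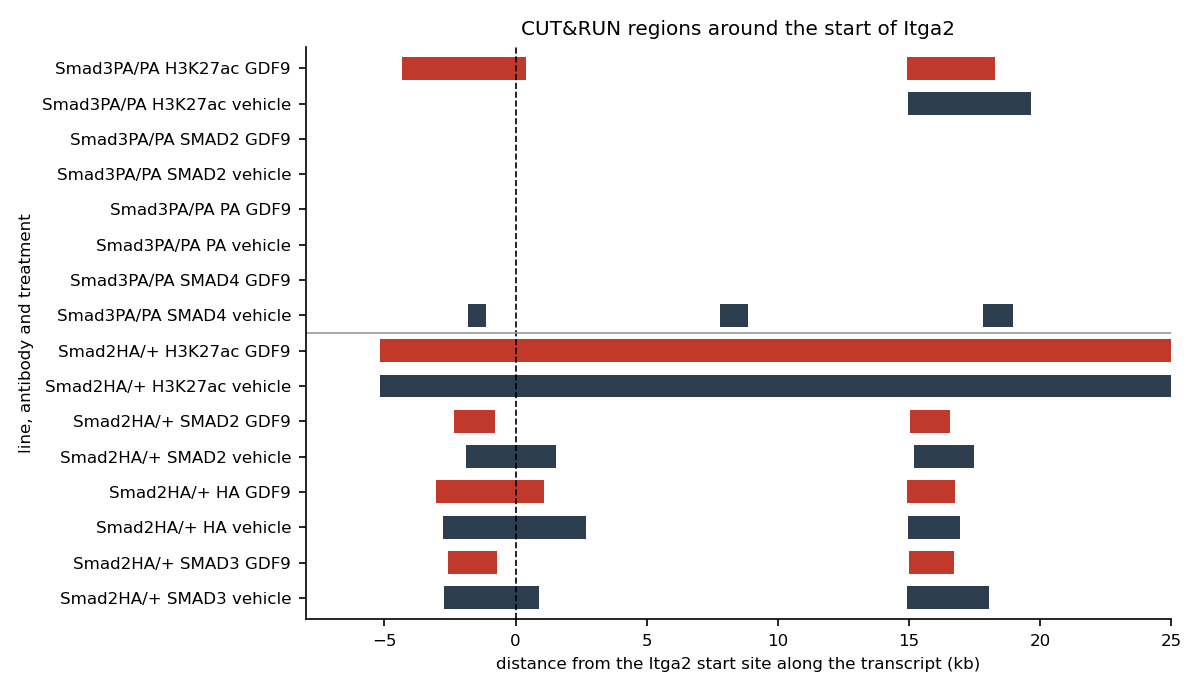
Regions found in both replicates around the start of Itga2, by distance from the start site in kb (positive values run into the gene), for each line, antibody and treatment. Red bars are GDF9 and dark bars vehicle, and H3K27ac regions of Smad2HA/+ cells run past the right edge. The intronic place 15 to 17 kb into the gene is marked by the SMAD2, HA and SMAD3 antibodies and by H3K27ac under both treatments.

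At Itga10 the one promoter region of a SMAD antibody was that of SMAD2 in GDF9-treated Smad2HA/+ cells, at chr3:96643305-96645479, with heights of 0.354 and 0.443 and no peak in either vehicle replicate. The region overlaps the first part of the Itga10 sequence shown above. HA and SMAD3 regions were found in an exon, with vehicle. In Smad2HA/+ cells an H3K27ac region overlapped the promoter window of Itga10 under both treatments. With GDF9 it was 99577 bp long and ended upstream of the start site, at chr3:96644460. With vehicle it was 107203 bp long and ran past the start site to chr3:96653487. Its highest points lay over 50 kb upstream of the start, and Smad3PA/PA cells had no H3K27ac region at Itga10.

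At Itga3 the H3K27ac promoter regions of Smad3PA/PA cells lay at different places in the treatments, chr11:95069056-95072325 with GDF9 and chr11:95074045-95078451 with vehicle, and neither place had a peak in the other treatment. The peaks were 10 and 6 steps high with GDF9, against 15 and 12 with vehicle, so each rests on few fragments, and in Smad2HA/+ cells a single wide region covered both places under either treatment. The RNA of Itga3 differed by less than its spread between replicates. With 2 libraries per treatment the smallest p of an exact test is 0.333, so no test was made on heights.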

How the data were processed

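RNA-seq was done in 4 of the 44 samples and CUT&RUN in 40, of which 8 were IgG samples whose peaks were not used here. The authors aligned RNA-seq reads to mm10 with STAR 2.7.11b, counted them per gene with featureCounts 2.1.1 and deposited normalized counts (a signal in which reads are divided by a DESeq2 1.48.2 size factor per library). In each library 100% of the values above 0 were whole multiples of 1 step within 0.05 reads, which gave the reads. Of 27179 entries, 1314 had no values per library and held 0.311% of the summed means. A further 3 columns lack a header and were left out. The deposited peak lists, made with Bowtie2 and SEACR, give each peak's highest signal as coverage relative to E. coli spike-in reads. Not given in the sources used here are the counting annotation, its strand setting and the role of IgG in peak calling. Columns of the authors' own comparisons were not used.

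Tests used limma 3.58.1 in R 4.3.3 without covariates, with a pseudocount of 1, which understates the change of low genes. The fits were tested on simulated data. Alternatives were edgeR 4.0.16 and DESeq2 1.42.0 on recovered reads and other settings. Regions (bedtools 2.31.1, minimum overlap 1 bp) used GENCODE vM21 models. The genes and lists were chosen with earlier results of these data known. Values per library are given for called genes, the 3 highest per kb of integrins, cadherins and claudins, and genes within 2 counts of the limit of 10, and other genes of the name pattern were added where a comparison turned on them. Exons of Itga10 and Itga1 overlap another gene model on the same strand, and those of Itga7, Itga8, Itgb1bp1, Itgb4, Cdh9 and Cldn22 overlap one on the opposite strand.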

Additional observations from a re-analysis of the deposited data

How the results depend on the processing

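Of 348 refits of single genes, 341 left the call as it was and 7 lost it, all for Itga10 or Itga2. A lost call or a change of direction could be counted only for these 2 called genes, and 0 changed direction. Most of the 348 refits are of uncalled genes and say nothing of how stable the 2 calls were. The count of 2 genes called higher stayed with pseudocounts of 0.5 and 5, TMM scaling and edgeR. It was 0 without a filter on low values (adjusted p 0.115 for Itga10 and 0.0923 for Itga2), 1 with a filter at a mean of 50, which removes Itga10, and 0 with DESeq2 (adjusted p 0.133 and 0.488). Without 1 library at a time it was 0 to 2. The count of genes called lower was 0 throughout. Over all genes 307 were called higher in the analysis as reported, against 125 with DESeq2, 161 without a filter and 194 without vehicle replicate 1. Same-numbered libraries shared no deviation (correlation 0.005, 2 pairs), and with the replicate number as a block 2 genes were again called higher and 0 lower. TMM scaling moved the median log2 fold change of all genes to -0.01.

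The region counts of Smad3PA/PA cells depended on the need for both replicates. With 1 replicate left out, SMAD2 counts were 11 to 15 with GDF9 and 9 to 12 with vehicle, PA counts 10 to 11 with GDF9 (21% and 21.6% of all tested genes) and 12 with vehicle (22.6% and 32.6%), and SMAD4 counts 17 to 19 with GDF9 (59.1% and 61.1%) and 15 to 17 with vehicle (53.2% and 58.7%). With the 50% of each list of highest signal, SMAD2 with GDF9 was 1 and H3K27ac with GDF9 was 7. SMAD4 was then 4 with GDF9 and 2 with vehicle. The share of all tested genes was not counted for that setting. In Smad2HA/+ cells SMAD2 was 11 with GDF9 (63.8% of all tested genes) and 15 with vehicle (74.3%), and H3K27ac with vehicle was 18 (78.9%). The SMAD and PA counts here cover the promoter, exons and first intron, and the H3K27ac counts the promoter alone. The cause of these shifts was not tested. At means under 50 the 95% intervals of log2 fold changes were up to 1.67 wide, so at this depth a smaller change in such a gene could be missed.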
